A study of Macaca fascicularis with 16 samples.

Results

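Lung tissue of old female cynomolgus monkeys (Macaca fascicularis) was set against lung tissue of young females by bulk RNA sequencing. The comparison used 8 of the 16 libraries of the series, chosen by their labelled age class and sex, with 4 from old females and 4 from young females. The other 8 libraries came from old and young males. They entered the scaling of the printed levels, an alternative fit and the comparison of the age difference between the sexes, and their levels are given beside those of some genes. The labels give age as old or young, name no treatment or genotype, and do not say whether the libraries of a group are separate animals. The p-values therefore measure the spread between these libraries, which may be technical in part.

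The lung is made of thin alveoli for gas exchange, airways lined by ciliated and secretory cells, blood vessels, connective tissue and resident immune cells. A piece of lung holds these in proportions that depend on where it was cut, and ageing is known to change elastic tissue, immune cells and the repair of the alveolar lining. In bulk tissue, fewer cells of a type and less RNA per cell cannot be told apart. The deposited files name genes by Ensembl identifiers and do not pair these with symbols. For this reason gene functions, marker genes of lung cell types and sequences are not given here, and the tissue label was not checked against markers.

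The old female libraries held 6817068 to 10823845 counts assigned to genes and the young ones 9542603 to 10643402. Reads assigned to no feature made up 25.0% ± 0.683 of all counts in old and 26.4% ± 1.42 in young females (SD, n = 4 each). The 100 most abundant genes of a library took 23.7% ± 1.36 of its assigned counts in old and 21.8% ± 0.394 in young females, and old female 1 (21.7%) lay inside the young range. These shares, the assigned counts, the number of genes with a count and the mean correlation with the other libraries did not pass a test between the ages (exact permutation tests of 5 measures, two-sided, p = 0.0857 to 0.686, adjusted p = 0.357 to 0.686, where 4 against 4 allows 0.0286 at the smallest).

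No gene passed the test between old and young female lungs. edgeR's quasi-likelihood test on these 8 libraries called 0 of 14792 genes (0%) at a Benjamini-Hochberg adjusted p under 0.05, and the smallest adjusted p was 0.0721. Before adjustment, 2251 genes (15.2%) had a p under 0.05, and 1154 (7.8%) of the tested genes were higher in old females at that level while 1097 (7.42%) were lower. A threshold of 0.05 lets through 739.6 of 14792 genes on average where none differs, but the number can vary widely because genes vary together. DESeq2, another count test, called 618 genes (4.18%), 361 higher and 257 lower. limma-voom called 0 (smallest adjusted p = 0.0884), and edgeR itself called 9 genes with no count filter and 5 in the model of all 16 libraries.

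The differences below the threshold were mostly small. Among the 2251 genes the median fold was 1.44, with 1.53 for those higher and 1.39 for those lower in old females, and a difference of 2-fold or more was reached by 359 (15.9%). The 4 old and the 4 young libraries did not overlap in 1445 of the 14792 genes (9.77%), with 664 higher (4.49%) and 781 lower (5.28%) in old females. At a looser adjusted p under 0.10 edgeR gave 47 genes (0.318%), 29 higher and 18 lower, with folds of 1.47 to 12.97 and a median of 2.11. All of these 47 had old and young libraries that did not overlap, a separation that their selection favours.

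ENSMFAG00000035363 and ENSMFAG00000041288 had the smallest p among genes higher in old females. ENSMFAG00000035363 stood at 75.0, 65.4, 72.5 and 60.3 counts per 1000000 (CPM) in old females 1 to 4, and at 37.6, 33.8, 38.5 and 33.1 CPM in young females 1 to 4. The lowest old library thus lay well above the highest young one, and old female 1 was the highest of all. The log2 difference between old and young was 0.94 (SE 0.11, edgeR adjusted p = 0.0721). ENSMFAG00000041288 stood at 101, 89.8, 129 and 96.6 CPM in old females and at 52.3, 57.6, 49.95 and 48.5 CPM in young females, in the same order, and old female 1 lay within the range of the other old females. Its log2 difference was 1.01 (SE 0.13, edgeR adjusted p = 0.0721).

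ENSMFAG00000038431 and ENSMFAG00000046315 had the smallest p among genes lower in old females. ENSMFAG00000038431 stood at 7.79 CPM in old female 1 and between 10.3 and 10.7 CPM in the other old females, against 24.9, 26.5, 20.97 and 24.2 CPM in young females 1 to 4. The young libraries were all at least 20.97 CPM, far from the old ones, and old female 1 was the lowest. The log2 difference was -1.28 (SE 0.15, edgeR adjusted p = 0.0721). ENSMFAG00000046315 was the gene with the widest gap of these, at 0.588, 1.02, 1.56 and 2.47 CPM in old females and 11.3, 31.9, 18.5 and 13.95 CPM in young females. These levels rest on 4 to 23 counts in each old and 106 to 338 counts in each young library. Its log2 difference was -3.70 (SE 0.47, edgeR adjusted p = 0.0742).

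**Figure D1:**
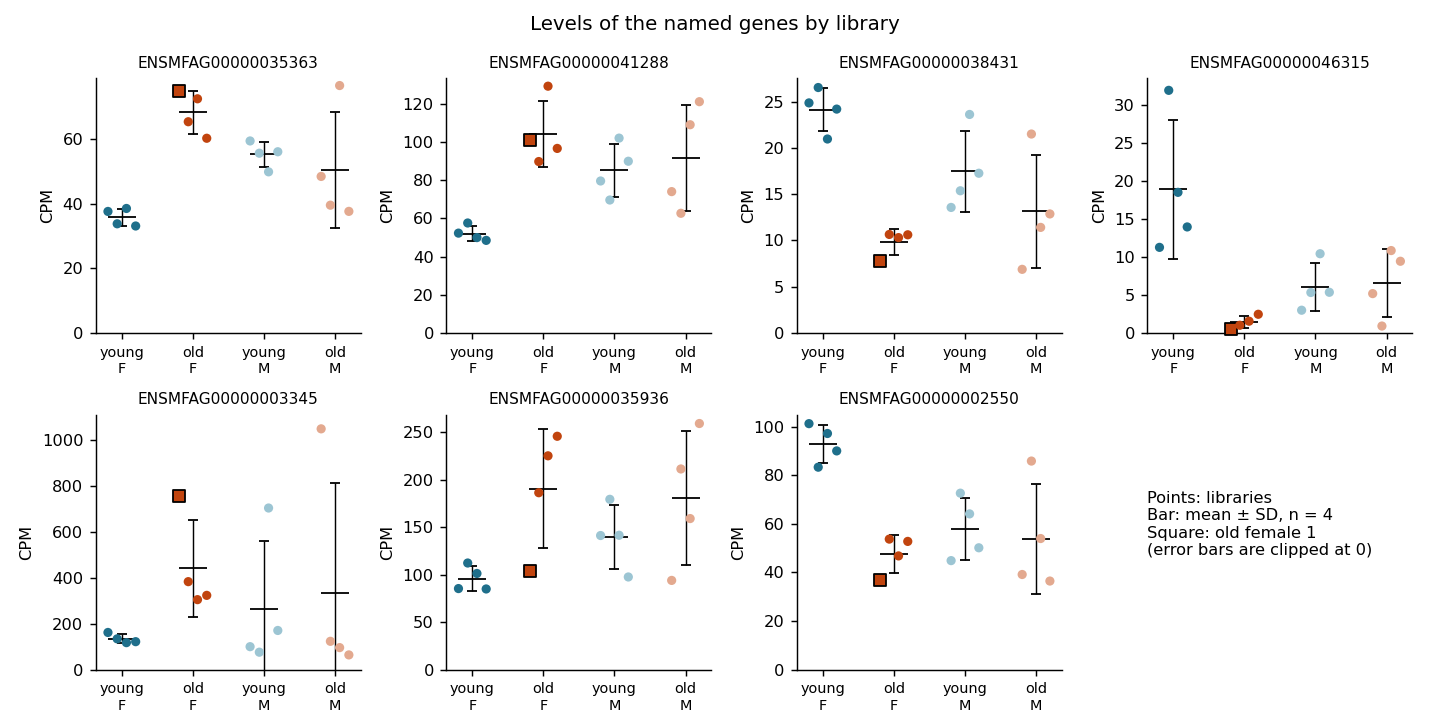
Levels (CPM, linear axis from 0) of 7 genes named by their p-values in young and old females (F) and males (M), with 1 point per library and the mean ± SD (n = 4) in black; the square is old female 1. In ENSMFAG00000035363 the old females sit between 60.3 and 75.0 CPM, all above the young females, while in ENSMFAG00000035936 old female 1 (104 CPM) sits among the young.

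The balance of higher and lower genes depended on the level of expression. CPM are not divided by gene length here, so the classes rank genes by how many counts they gave. Among 4148 genes with a mean of 1 to 10 CPM over the 8 libraries, 397 (9.57%) had an unadjusted p under 0.05, 263 higher and 134 lower in old females, with a median fold of 2.04. Among 8490 genes at 10 to 100 CPM there were 1391 (16.4%), 681 higher and 710 lower, with a median fold of 1.40. Among 2123 genes over 100 CPM there were 461 (21.7%), 210 higher and 251 lower, with a median fold of 1.34. The other 31 genes lay under 1 CPM. The share below the threshold was larger in genes with more counts, and the folds were smaller there. Without old female 1 the split for the genes over 100 CPM turned to 238 higher and 194 lower, and that for 10 to 100 CPM to 678 higher and 595 lower. The split for 1 to 10 CPM stayed close, at 267 higher and 145 lower.

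**Figure D2:**
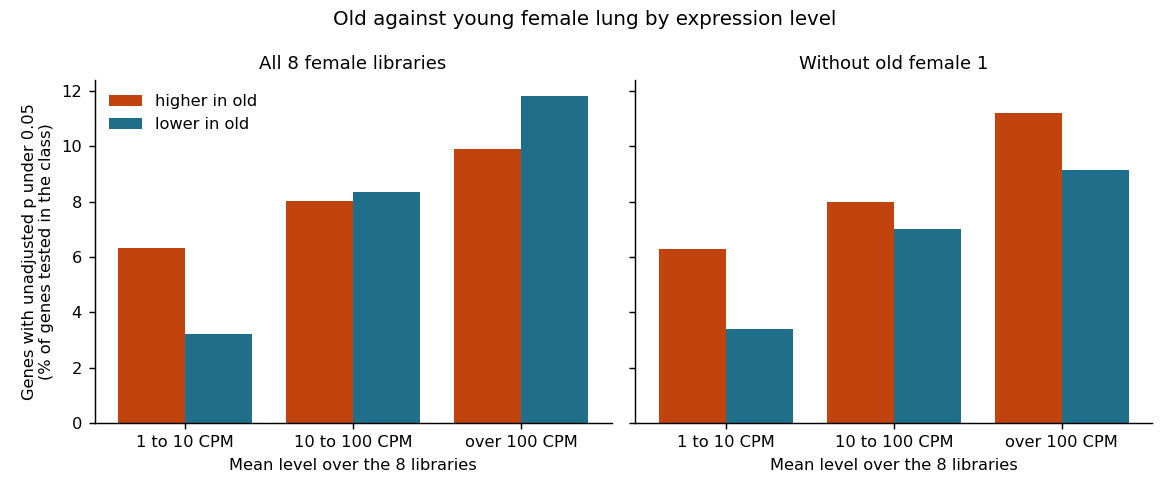
Share of tested genes with an edgeR unadjusted p under 0.05 (percent, from 0) that were higher or lower in old than in young females, by mean level over the 8 female libraries, with all libraries (left) and without old female 1 (right). Genes at 1 to 10 CPM lean to higher in both panels, while those over 100 CPM lean to lower on the left and to higher on the right.

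Old female 1 stood apart from the other 7 libraries. Its mean Spearman correlation with them over the 14792 genes was 0.901, against 0.952 to 0.960 for each of the others. On the first principal component of log2 CPM, which held 45.6% of the variance, it lay at -93.1 and the others from -22.6 to 44.3. Of the sum of squares within the 2 age groups, 28.7% came from old female 1 and 7.09% to 13.1% from each other library. It was the highest of the 8 libraries in 23.6% of genes and the lowest in 23.8%, where each other library was the highest in 7.90% to 13.5% and the lowest in 8.99% to 13.3%. It had the fewest assigned counts of the 8 (6817068). Old female 2 had 7089765 and lay at -4.04 on that component. Whether the number of counts plays a part in the position of old female 1 was not tested.

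The second component, with 15.1% of the variance, separated the ages in these libraries. Old females lay at 17.4 to 34.1 on it and young females at -13.7 to -33.3, and old female 1 (17.4) was on the old side. The young females also fell into pairs on the first component, with young females 3 and 4 at -22.6 and -19.7 and young females 1 and 2 at 44.3 and 39.4. With old female 1 left out, the first component (34.2% of the variance) again held young females 3 and 4 at its lower end, at -46.6 and -45.8, and the second (20.5%) again set the old libraries (23.1 to 31.0) apart from the young (-8.46 to -39.4).

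**Figure D3:**
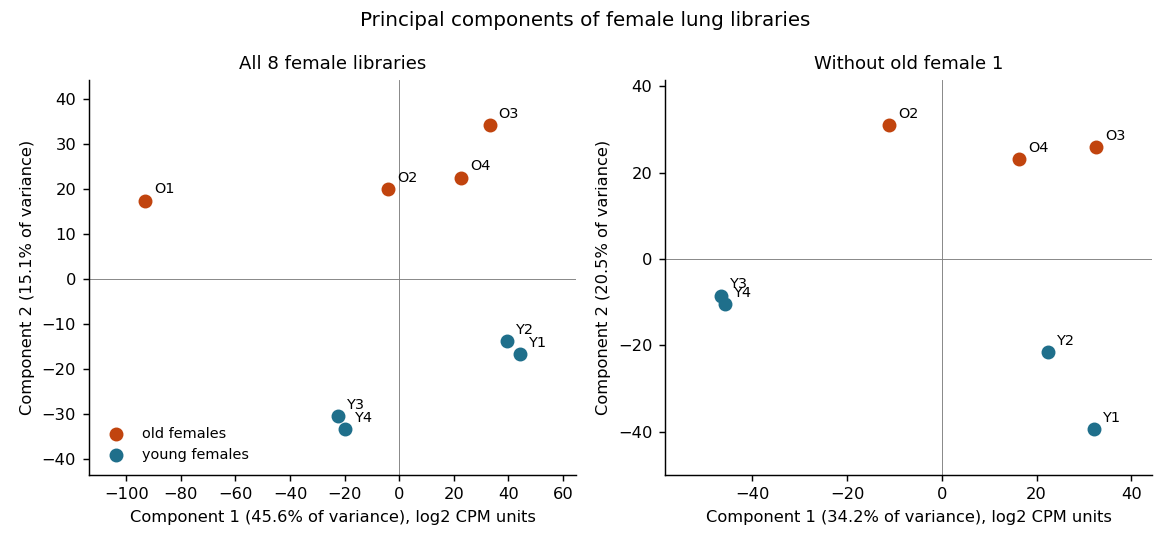
Principal components of log2 CPM over 14792 genes for old (O1 to O4) and young (Y1 to Y4) female libraries, with all 8 libraries (left) and without old female 1 (right); 1 point per library. Old female 1 lies at -93.1 on component 1 on the left, and old and young libraries fall on opposite sides of 0 on component 2 in both panels.

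Many genes set old female 1 apart in the same direction. Of 14761 genes with a mean of at least 1 CPM, 600 were at least 4-fold higher in old female 1 than the mean of old females 2 to 4 on the log2 scale, and 84 at least 4-fold lower. For the other 7 libraries, set in the same way against the rest of their group, these numbers were 33 to 225 above and 35 to 263 below. ENSMFAG00000045102 had the largest excess, with 71.0 CPM in old female 1 against 0.146, 0 and 1.18 CPM in old females 2 to 4. In ENSMFAG00000003903 the level was 179 CPM in old female 1 and 3.79, 0.0973 and 3.003 CPM in the others. Both genes were also uneven among young females, at 0, 0.378, 6.27 and 40.5 CPM for ENSMFAG00000045102 and at 0.319, 0.189, 17.8 and 29.0 CPM for ENSMFAG00000003903 in young females 1 to 4. A level of 0 rests on 0 counts, which allows up to 0.292 CPM in old female 3 and 0.319 CPM in young female 1, for counting error only.

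The 2 genes furthest below the other old females did not divide young females 1 and 2 from 3 and 4. ENSMFAG00000019905 had 0 counts in old female 1, which allows up to 0.441 CPM, against 59, 64 and 44 counts in old females 2 to 4. Young female 1 also had 0 counts of it, and young females 2 to 4 had 66, 44 and 22. ENSMFAG00000002213 stood at 1.18 CPM in old female 1, at 36.5, 59.6 and 27.2 CPM in old females 2 to 4, and between 16.4 and 29.1 CPM in the young females.

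The 600 genes were also high in some other libraries. Young females took part in the choice through the minimum mean level and the count filter, which asks for enough counts in several female libraries. A gene low in old females 2 to 4 can pass that filter through young libraries, which favours genes high in some young females. Males entered the choice only through the scaling of levels. The 600 genes took 4.99% of the assigned counts of old female 1 and 0.308% to 0.619% in old females 2 to 4. In young females 3 and 4 they took 1.21% and 1.14%, against 0.298% in each of young females 1 and 2. Young females 3 and 4 both lay above young females 1 and 2 in 511 of the 600 genes (85.2%), beside 2801 of all 14792 genes (18.9%). In males the share was 2.98% in old male 3, 0.910% in young male 1 and 0.292% to 0.771% in the other 6 libraries. Among the 84 low genes, young females 3 and 4 lay above young females 1 and 2 in 13 (15.5%) and below them in 17 (20.2%), beside 18.9% and 19.6% of all genes.

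Across 15472 genes, deviations from the group mean in old female 1 had a correlation of 0.490 with those in young female 3 and 0.438 with those in young female 4. With young females 1 and 2 the values were -0.417 and -0.463. These are descriptions over genes, which are not independent, and the deviations within the young group sum to 0. What the 600 genes are was not tested.

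**Figure D4:**
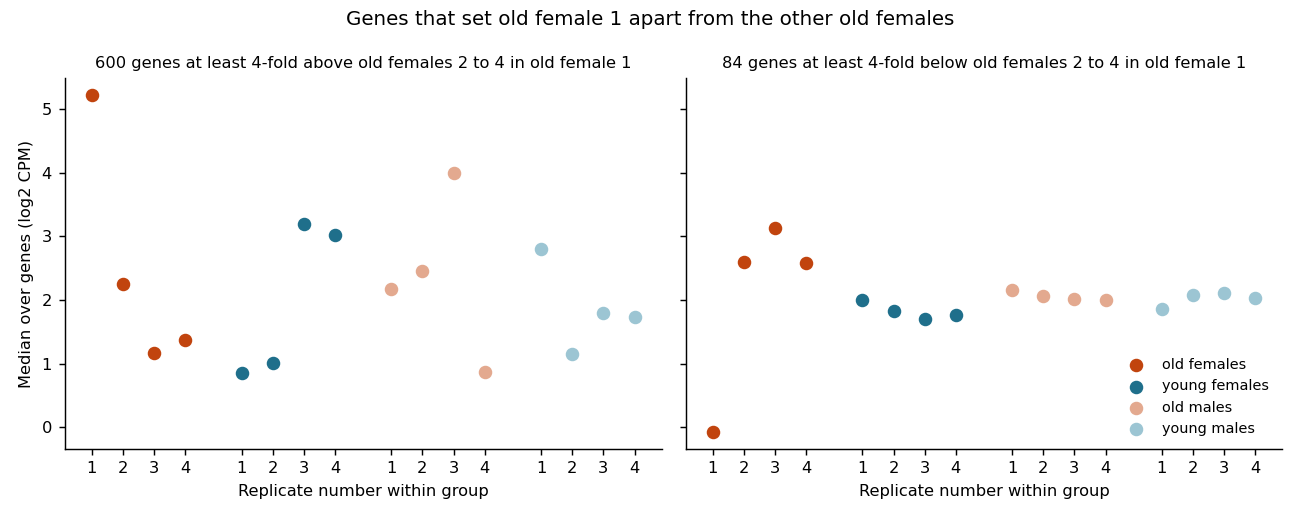
Median log2 CPM over the 600 genes at least 4-fold above (left) and the 84 genes at least 4-fold below (right) the mean of old females 2 to 4 in old female 1, with 1 point for each of the 16 libraries. On the left young females 3 and 4 (3.20 and 3.02) and old male 3 (3.996) sit above the other libraries of their groups, while on the right all libraries except those of old females lie between 1.70 and 2.16.

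The direction of the large differences turned on old female 1. With all 8 libraries, 868 genes (5.87%) had a fitted difference of at least 2-fold, and 713 of these were higher and 155 lower in old females. Without old female 1 there were 816 of 15014 (5.43%), with 408 higher and 408 lower. Leaving out any 1 of the other 7 libraries gave 741 to 971 higher and 172 to 253 lower. Among the 600 genes the median log2 difference between old and young was 1.13 with all libraries and -0.74 without old female 1. Their choice by a high level in that library against old females 2 to 4 fixes that the median falls. An unadjusted p under 0.05 was reached by 5 of the 600 (0.833%) with all libraries, beside 15.2% of all genes, and by 26 (4.33%), all lower in old females, without old female 1, beside 14.2%. Choosing genes by the deviation of 1 old library makes their spread within old females large, which favours few passing with all libraries. The same choice favours genes that are low in old females 2 to 4. It thus favours the lower direction in the fit without old female 1. The spread within old females also moved with this library. The median SD over genes was 0.283 log2 units in old and 0.231 in young females, and 0.214 in old females without old female 1. edgeR's common coefficient of variation between libraries was 0.337 with all 8, 0.263 without old female 1 and 0.336 to 0.358 without any other library.

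**Figure D5:**
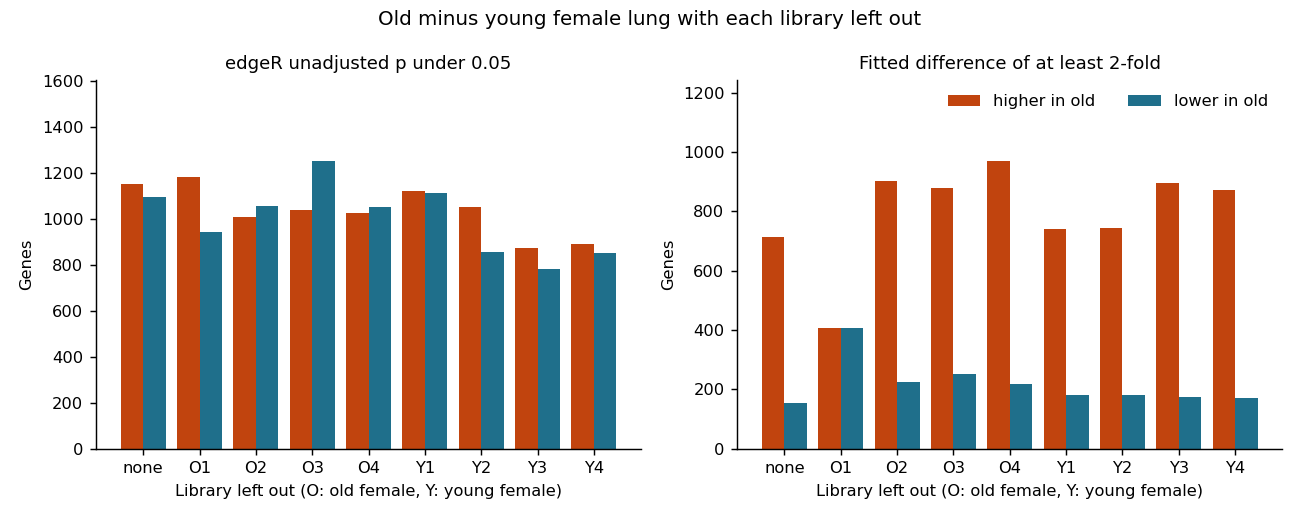
Number of genes higher or lower in old than in young females (bars from 0) with no library or 1 library left out, by an edgeR unadjusted p under 0.05 (left) and by a fitted difference of at least 2-fold (right). On the right the excess of higher genes (713 against 155) is gone when old female 1 (O1) is left out (408 against 408).

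Without old female 1, edgeR called 10 of 15014 genes (0.0666%), 8 higher and 2 lower in old females, with folds of 1.81 to 2.52. The adjusted p was 0.0412 for each of them. With all 8 libraries none of these 10 was called, at edgeR adjusted p of 0.0721 to 0.138. The p before adjustment was under 0.05 for 2130 genes (14.2%), with 1185 higher and 945 lower. Of these, 1651 were also among the 2251 found with all libraries, which is 73.3% of the larger list and 77.5% of the smaller, and both fits share 7 libraries. DESeq2 called 641 genes (4.27%) without old female 1, with all 10 among them. All 10 calls were lost with limma-voom (smallest adjusted p = 0.0578), with limma-voom and quality weights (0.0533) and in edgeR with the replicate number as a block (0.0991).

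ENSMFAG00000003345 had the smallest p of this fit and rose in old females 2 to 4. It stood at 383, 305 and 323 CPM there and at 162, 134, 118 and 122 CPM in young females 1 to 4, a log2 difference of 1.33 (SE 0.14, edgeR adjusted p = 0.0412). Old female 1 had 755 CPM, further from the young than any other old female. ENSMFAG00000035936 rose to 186, 225 and 246 CPM in old females 2 to 4 from 85.4, 112, 101 and 85.0 CPM in young females, a log2 difference of 1.19 (SE 0.13, edgeR adjusted p = 0.0412). Here old female 1 had 104 CPM and lay within the young range.

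The 2 genes that fell without old female 1 were ENSMFAG00000038431, described above, and ENSMFAG00000002550. ENSMFAG00000038431 had a log2 difference of -1.19 in this fit (SE 0.14, edgeR adjusted p = 0.0412). ENSMFAG00000002550 stood at 53.7, 46.8 and 52.8 CPM in old females 2 to 4 and at 101, 83.3, 97.1 and 89.97 CPM in young females, a log2 difference of -0.86 (SE 0.11, edgeR adjusted p = 0.0412). Old female 1, at 36.9 CPM, was lower still.

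Over the 10 genes, old female 1 lay beyond the other old females on the side away from the young in 4, between the other old and the young libraries in 4, and within the young range in 2. It was within the range of the other old females in 0 of the 10. The fit that chose these genes favours a narrow spread in old females 2 to 4. That in turn favours old female 1 lying outside their range, and the same positions were not counted over all genes. The 10 calls lay close to the threshold. With a second library left out, edgeR called 0 genes without old female 2, 3 or 4 or young female 2 or 4, 2 genes without young female 1 and 1 gene without young female 3. Only 1 gene of these fits, found without young female 1, was among the 10.

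The male libraries, which share none with the females, were used to ask whether the age difference in females differed from that in males. The interaction in a model of all 16 libraries (the age difference in males minus that in females) called 0 of 15472 genes (0%) in edgeR, with a smallest adjusted p of 0.141 and 986 genes (6.37%) at an unadjusted p under 0.05. DESeq2 called 55 genes. Leaving out old female 1 gave 3 genes in edgeR, leaving out old male 3 also gave 3, and leaving out old female 4 gave 1.

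For the 7 genes named by p, the log2 age difference fitted in males lay between -0.41 and 0.37, and the adjusted p of the interaction between 0.299 and 0.935, so no difference between the sexes passed. ENSMFAG00000035363 had a level of 55.3 ± 3.97 CPM in the young males and of 50.6 ± 17.97 CPM in the old ones (SD, n = 4 each), and its interaction of -1.05 (SE 0.24) did not pass (edgeR adjusted p = 0.299). ENSMFAG00000046315 was measured at 6.03 ± 3.13 CPM in the young and 6.60 ± 4.48 CPM in the old males, with an interaction of 3.85 (SE 0.85, edgeR adjusted p = 0.299). Selection in females favours such differences. ENSMFAG00000003345 was uneven in males of both ages, with 1048 CPM in old male 1 and 64.5 to 124 CPM in the other old males, and with 703 CPM in young male 3 and 76.3 to 171 CPM in the other young males.

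The 10 genes called without old female 1 had the same direction in males in 9 cases, and 0 of the 10 reached an unadjusted p under 0.05 in edgeR's test on the 8 male libraries. That test called 1 gene of 14729 (0.00679%), with 1088 (7.39%) at an unadjusted p under 0.05. Of the 2251 genes found in females at that level, 2232 were tested in males. The direction was the same in 1644 of these (73.7%), beside 63.5% of all 14530 genes tested in both sexes. In males 248 of them (11.1%) also had an unadjusted p under 0.05, beside 7.36% of all, and 204 of the 248 had the same direction, 101 higher and 103 lower. Without old female 1 the same-direction shares were 68.0% of the female genes at that level and 57.2% of all genes tested in both fits. Of the 47 genes at an adjusted p under 0.10 in females, 31 of the 46 tested in males had the same direction there, and 6 of those had an unadjusted p under 0.05. Their median absolute log2 difference was 1.07 in females and 0.34 in males. The interaction had an edgeR unadjusted p under 0.05 in 7 of the 10 genes and in 31 of the 47, beside 6.37% of all genes. None passed after adjustment, and selection in females favours such differences.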

How the data were processed

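Total RNA was extracted with TRIzol and libraries were prepared with a NEBNext Ultra RNA kit, per the labels' protocols. That kit does not mark strand, so reads of overlapping antisense genes cannot be told apart, and genes with near-identical copies are uncertain. The deposited values are raw whole-number counts for 27966 Ensembl identifiers in each library. Which aligner, counter, build and annotation were used is not given in the sources used here. In each file 5 summary entries (those for no feature held 24.4% to 28.1% of the counts of a female library) entered neither library sizes nor tests. The gene name table used here (40596 genes, T2T-MFA8v1.1) paired 0 identifiers with symbols, so the gene lists and marker lists planned were not run.

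Tests were run with edgeR 4.0.16 in R 4.3.3 (filterByExpr, TMM, robust glmQLFit, quasi-likelihood test, Benjamini-Hochberg adjustment, threshold 0.05). DESeq2 1.42.0 and limma 3.58.1 were alternatives. The SE is the log2 difference divided by the square root of F. CPM and log2 CPM (prior count 2) were scaled with TMM factors of all 16 libraries. Genes were named by rule: the 2 smallest p per direction at a mean of at least 1 CPM, in the fits with and without old female 1, and the 2 largest deviations of old female 1 per direction. The comparison, the check of old female 1 and the rules were chosen with earlier results of these data known. Pairs of libraries of 1 group differed beyond sampling noise (chi-square per degree of freedom 12.9 to 54.3). The fits were tested on simulated data. Alternatives were other factors, filters and tools, a replicate block and the omission of each library.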

Additional observations from a re-analysis of the deposited data

Results flagged for a closer look

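Old female 1 had a mean Spearman correlation of 0.901 with the other 7 female libraries, which Dixon's test picks out from the other old females. The same test picked out old female 1 for ENSMFAG00000038431, at 7.79 CPM against 10.3 to 10.7 CPM in the other old females, so it lay further from the young libraries than they did. In all, 24 groups of 4 values were examined, and about 1 in 20 is picked out by chance.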

How the results depend on the processing

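The 0 genes called by edgeR with all 8 libraries became 9 with no count filter, 618 with DESeq2, 10 with limma-voom and quality weights, and 5 with the model of all 16 libraries, and 0 to 10 when each library was left out. It stayed 0 with RLE factors, a filter of 1 CPM in 4 libraries, limma-voom and the bias-adjusted quasi-likelihood. The last was added after the data were seen, because the legacy form listed as the alternative proved to be the default of this edgeR version. At an unadjusted p under 0.05 the count was 1655 to 2507 over all settings. The 10 genes called without old female 1 became 96 with no count filter, 50 with the 1 CPM filter, 641 with DESeq2, 0 with limma-voom, 0 with its quality weights, 0 with the replicate block, and 0 to 2 with a further library left out. The interaction gave 55 genes with DESeq2, 4 with limma-voom and quality weights, and 0 to 3 with each library left out. Same-numbered female libraries had deviations from their group means with correlations of -0.417 to 0.0122. These showed no pairing by replicate number but cannot exclude it, because deviations within a group sum to 0. The replicate block gave 0 genes with all 8 libraries (2196 at an unadjusted p under 0.05) and 0 for the interaction (918). The old minus young difference in mean Spearman correlation was -0.0129, and -0.0200 to 0.00136 with each library left out, turning sign without old female 1. The 7 genes named by p kept their direction in the alternatives run for them. Of the genes named for their deviation in old female 1, ENSMFAG00000045102 went from a log2 difference of 0.61 to -4.68 without that library. ENSMFAG00000003903 went from 1.98 to -2.40. Their choice favours these falls, and no other alternative was run for genes named in this way. With 4 libraries a side, 1 library moved the calls, and depth of 6817068 counts limits genes of few counts.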
